A study of Mus musculus with 8 samples.

Results

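The genes described here are 7 matrix metalloproteinases (MMP1, MMP3, MMP9, MMP10, MMP13, MMP14 and MMP28) and 3 of their tissue inhibitors (TIMP1, TIMP2 and TIMP3), taken by gene name from the deposited table. All 10 were found, each once, among 58304 genes. None of them passed the test between the libraries labelled rFGF4 and those labelled PBS. The 6 that were expressed high enough to be tested were MMP14, MMP28, MMP13, TIMP1, TIMP2 and TIMP3, while MMP1, MMP3, MMP9 and MMP10 lay below the filter on low values.

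The study compared skin wounds of C57BL/6 mice aged 6 to 8 weeks that were given recombinant fibroblast growth factor 4 (rFGF4) with wounds given PBS, the buffer control. According to the labels, total RNA was taken at day 6 from the 2 mm of skin around each wound, with 4 libraries in each group. The labels do not say whether a library stands for 1 animal, so the p-values below measure the spread between these libraries. The table itself holds human genes: all 58304 identifiers are human and 0 are mouse. Groups are therefore those of the column names, and nothing below is attributed to mouse wounds.

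The libraries held 62044121 to 73680756 counts. All 12 keratinocyte markers examined stood at a mean of at least 1 FPKM (a level per length of gene and per mapped fragment), among them KRT14 at 946 to 1162 FPKM, and 2 of the 12, KRT15 and DSG3, were lower in the rFGF4 libraries by the test described below, as were 4.54% of all tested genes. Of 8 dermal fibroblast markers 0 reached that level, and their summed level was 0.776 to 0.864 FPKM in the PBS libraries and 0.411 to 0.517 FPKM in the rFGF4 libraries. COL1A1 was at most 0.303 FPKM, and DPT had 0 counts throughout. CD68 (7.19 to 10.6 FPKM) was the 1 of 7 macrophage markers at that level, with AIF1 at 0 and PTPRC at most 0.0106 FPKM. The 2 of 7 neutrophil markers at that level were S100A8 and S100A9, while CSF3R, FCGR3B, MPO and ELANE were at 0. CDH5 was the 1 of 5 endothelial markers, and the summed level of these 5 was 1.86 to 3.09 FPKM in the PBS and 3.08 to 4.09 FPKM in the rFGF4 libraries. The part of other cell types in the values below was not tested. In RNA from many cells, fewer cells of a type and less RNA per cell cannot be told apart.

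Matrix metalloproteinases are zinc-dependent enzymes that cut collagens, laminins and many other proteins outside the cell. Most are made as inactive precursors whose prodomain must be removed, and the TIMPs then hold the active enzymes in check by binding the catalytic site. In skin wounds, keratinocytes at the migrating edge are known to make collagenases and stromelysins, which loosen their contact with the matrix.

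The family was uneven in level. In the PBS libraries MMP14 was the highest of the 10 genes at 66.5 ± 4.72 FPKM (mean ± SD, n = 4), followed by MMP28 at 47.6 ± 4.48 FPKM and TIMP1 at 19.9 ± 2.57 FPKM. TIMP3 stood at 7.14 ± 0.209 FPKM, MMP13 at 5.07 ± 0.744 FPKM and TIMP2 at 3.55 ± 0.522 FPKM. These 6 genes did not overlap with their neighbours in this order in the PBS libraries. The closest pair was MMP13, with a lowest value of 4.16 FPKM, and TIMP2, with a highest value of 4.10 FPKM. In the rFGF4 libraries the order was the same, but MMP13 (3.14 to 4.17 FPKM) and TIMP2 (2.36 to 3.46 FPKM) overlapped. MMP14 was above 95.2% of the 11536 tested genes by mean FPKM, MMP28 above 92.6% and TIMP2 above 31.9%.

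**Figure D1:**
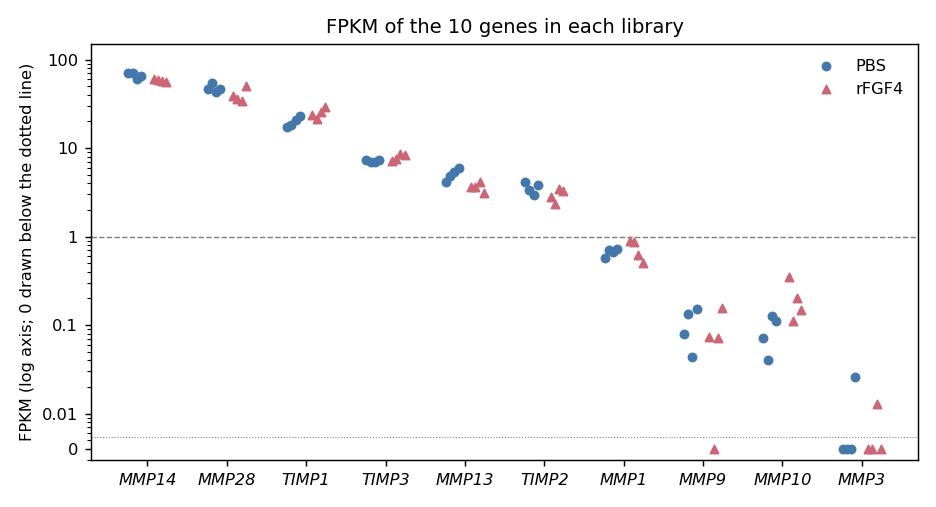
FPKM on a log axis of the 10 genes in each of the 4 PBS (circles) and 4 rFGF4 (triangles) libraries, ordered by the PBS mean; the dashed line is the filter at 1 FPKM, and values of 0 are drawn below the dotted line. MMP14, MMP28, TIMP1, TIMP3, MMP13 and TIMP2 lie above the filter in every library, and MMP1, MMP9, MMP10 and MMP3 below it.

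The collagenase MMP1 lay just under the filter, and the stromelysins and MMP9 lay near the limit of detection. MMP1, the interstitial collagenase, was at 0.576, 0.707, 0.678 and 0.718 FPKM in PBS replicates 1 to 4 and at 0.892, 0.876, 0.616 and 0.508 FPKM in rFGF4 replicates 1 to 4. The rFGF4 libraries thus lay on both sides of the PBS libraries, with replicates 1 and 2 above them and replicate 4 below. These values rest on 87 to 154 counts per library. With no filter, edgeR gave MMP1 a log2 fold change of 0.13 (95% interval −0.36 to 0.62, adjusted p = 0.823).

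MMP10, stromelysin 2, which migrating keratinocytes are known to make, was at 0.0721, 0.0402, 0.127 and 0.110 FPKM in the PBS libraries and at 0.354, 0.112, 0.204 and 0.149 FPKM in the rFGF4 libraries. All but rFGF4 replicate 2 lay above the PBS libraries, and the groups overlapped through that library. The counts were 6 to 17 in the PBS and 17 to 55 in the rFGF4 libraries, where 12 counts, or about 3 fragments, was taken as the floor. The fit with no filter gave a log2 fold change of 1.19 (95% interval 0.05 to 2.32), with an edgeR p of 0.0427 and an adjusted p of 0.338, so MMP10 did not pass.

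MMP9, the gelatinase B that neutrophils, macrophages and keratinocytes can make, had 8 to 28 counts in the PBS and 0 to 32 counts in the rFGF4 libraries. Its level was 0.0437 to 0.153 FPKM in the PBS libraries and 0 to 0.156 FPKM in the others, against a floor of 0.0614 FPKM. MMP3, stromelysin 1, had 4 counts in PBS replicate 4, 2 counts in rFGF4 replicate 3 and 0 in the other 6 libraries, so all 8 values lay below its floor of 0.0780 FPKM. A difference in MMP3 was not detectable at this depth, and for MMP9 the interval of the log2 fold change ran from −2.51 to 1.67 (adjusted p = 0.875, edgeR with no filter).

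Between the groups, 5.49% of the 11536 tested genes (633) were higher in the libraries labelled rFGF4 and 4.54% (524) were lower (edgeR quasi-likelihood, Benjamini-Hochberg adjusted p under 0.05). Of the 6 tested metalloproteinase and TIMP genes, 0 passed in either direction. At an unadjusted p under 0.05 it was 3 of 6, a level that 25.1% of all tested genes reached. DESeq2 called 1 of the 6, MMP13, where it called 982 higher and 846 lower of the 11536 tested genes. With limma on log2(FPKM + 1) it was 0 of the 6, beside 561 higher and 582 lower over all. The median log2 fold change of the 6 was −0.21, beside 0.00 over all tested genes. With no filter, 0 of the 10 passed, where 2.90% of 29674 genes did. Levels between libraries are given from here as CPM, counts scaled to a fixed library total with TMM factors, the scale on which the test was run.

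MMP14, a membrane-anchored enzyme that cuts fibrillar collagen and activates pro-MMP2 on the cell surface, stood at 369, 379.5, 318 and 351 CPM in PBS replicates 1 to 4. In rFGF4 replicates 1 to 4 it stood at 320.3, 306, 313 and 313 CPM. PBS replicate 3 was low and lay among the rFGF4 libraries, and the other 3 PBS libraries lay above all 4 of them. The log2 fold change was −0.18 (SE 0.06, 95% interval −0.32 to −0.03), with adjusted p = 0.121. On the deposited FPKM scale the groups did not overlap, at 60.6 to 70.7 against 55.6 to 59.8 FPKM, as was so for 19.2% of all tested genes. Of the 6 genes, MMP14 also varied least within the rFGF4 group, with a coefficient of variation of 1.81% beside a median of 11.5% over all tested genes.

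MMP28, or epilysin, a secreted enzyme first known from keratinocytes and testis, was at 177, 206, 161 and 183 CPM in the PBS libraries and at 149, 133, 133 and 200.3 CPM in the rFGF4 libraries. Replicates 1 to 3 of rFGF4 lay below every PBS library, whereas replicate 4 lay within the PBS range. The log2 fold change was −0.24 (95% interval −0.56 to 0.08, adjusted p = 0.344). Without rFGF4 replicate 4 it was −0.40 and passed the test, with an edgeR adjusted p of 0.0364. With any other single library left out MMP28 did not pass, at edgeR adjusted p of 0.318 to 0.580. The interval that the table gives for MMP28 (chromosome 17, 35756249 to 35795707, minus strand, build not given in the sources used here) lies wholly within that of TAF15, an RNA-binding protein gene on the plus strand. TAF15 was counted at 39.8 to 62.7 FPKM. Without knowledge of the strand, reads of the pair cannot be told apart where their exons overlap, so the level of MMP28 is uncertain. TAF15 itself had a log2 fold change of 0.07 (SE 0.13, adjusted p = 0.787). The part of TAF15 reads in the MMP28 values was not tested.

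MMP13, a collagenase with a broad range of substrates, was at 14.0, 16.5, 17.9 and 20.3 CPM in the PBS libraries and at 12.3, 12.1, 14.5 and 11.2 CPM in the rFGF4 libraries. The groups overlapped only in that rFGF4 replicate 3 lay above PBS replicate 1. The log2 fold change was −0.45 (SE 0.13, 95% interval −0.76 to −0.15), the largest in size of the 6, with adjusted p = 0.0697. The call was made by DESeq2 (adjusted p = 0.0167) and by edgeR without PBS replicate 1 (−0.54, adjusted p = 0.0449). Over the 19 other settings run, the adjusted p ranged from 0.0167 to 0.149.

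Among the inhibitors, TIMP1, a secreted protein that binds most metalloproteinases, was at 29.6, 32.0, 35.6 and 40.4 CPM in the PBS libraries. It was at 41.5, 36.1, 45.3 and 53.8 CPM in the rFGF4 libraries. Of the rFGF4 libraries, replicates 1, 3 and 4 lay above all PBS libraries and replicate 2 lay below PBS replicate 4. The log2 fold change was 0.36 (SE 0.14, 95% interval 0.04 to 0.68), with adjusted p = 0.150, so TIMP1 did not pass.

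TIMP2, which holds pro-MMP2 to MMP14 at the cell surface as well as inhibiting both, was at 27.4, 22.7, 19.4 and 26.2 CPM in the PBS libraries and at 18.8, 15.6, 24.0 and 23.1 CPM in the rFGF4 libraries. The groups overlapped broadly, with a log2 fold change of −0.23 (95% interval −0.61 to 0.14, adjusted p = 0.430). TIMP3, which stays bound to the matrix and also inhibits ADAM17, was at 40.0, 38.6, 37.6 and 40.9 CPM in the PBS libraries. In the rFGF4 libraries it was at 39.6, 40.5, 48.3 and 49.1 CPM, with replicates 3 and 4 above and replicates 1 and 2 within the PBS range. Its log2 fold change was 0.18 (95% interval −0.02 to 0.37, adjusted p = 0.254).

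**Figure D2:**
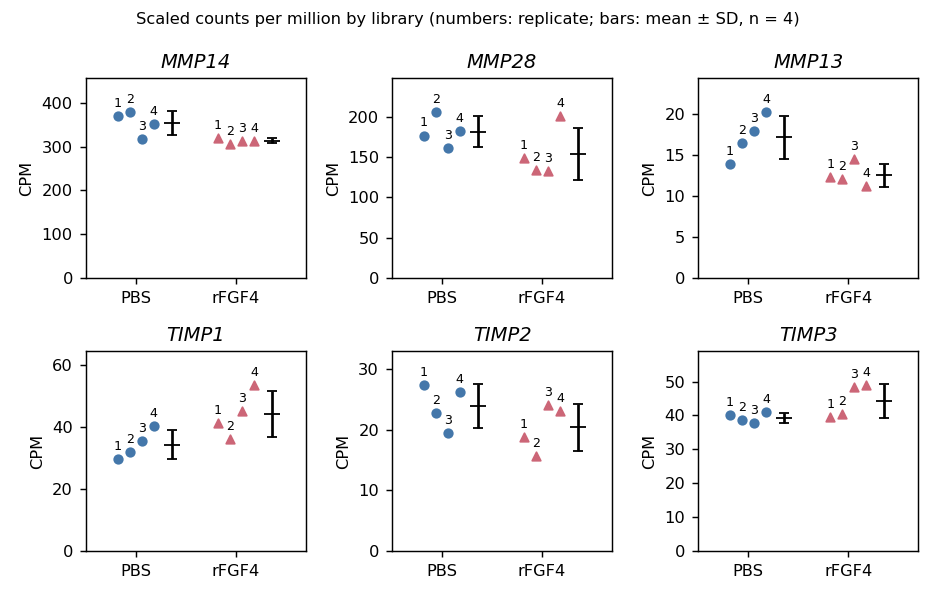
Scaled CPM of the 6 tested genes in each library, with the replicate number above each point and the mean ± SD (n = 4) as a bar beside each group. The groups overlap in every panel, and rFGF4 replicate 4 stands apart from the other 3 rFGF4 libraries for MMP28, at 200.3 against 133 to 149 CPM.

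**Figure D3:**
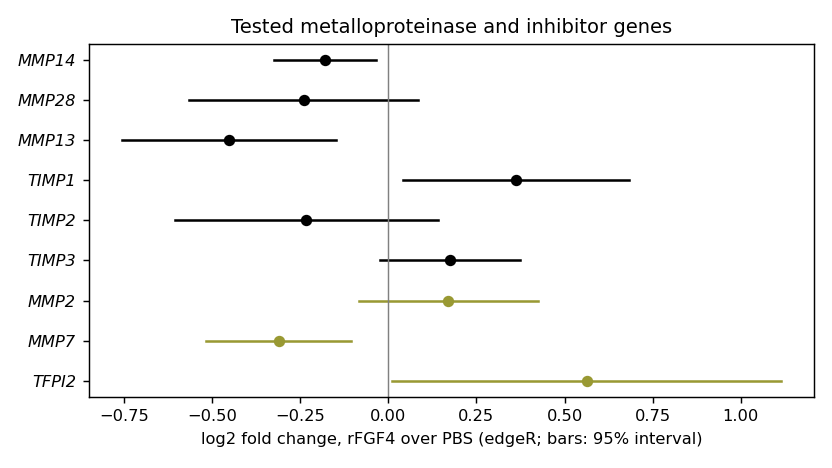
Fitted log2 fold changes of rFGF4 over PBS with 95% intervals from edgeR for the 6 tested genes (black) and for the 3 tested genes of the list of other metalloproteinases and inhibitors (olive). The intervals of MMP14, MMP13, TIMP1, MMP7 and TFPI2 leave out 0 before adjustment, and none of the 9 genes passed after it.

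Among the 6 tested genes, the 3 metalloproteinases had estimates below 0 as did TIMP2, while TIMP1 and TIMP3 had estimates above 0. None of these passed. Outside the 10 genes, the tested metalloproteinases MMP7 and MMP2 had log2 fold changes of −0.31 and 0.17, and neither passed by edgeR. As a description with no test, summed FPKM was taken over the 7 metalloproteinases and over the 3 TIMPs. The metalloproteinase sum was 120.0 ± 8.42 FPKM in the PBS and 102 ± 5.90 FPKM in the rFGF4 libraries (mean ± SD, n = 4 each). It ranged from 109.7 to 130.2 and from 96.0 to 109.4 FPKM, so on this scale the groups met without overlapping. FPKM carries no TMM factor. MMP14, the largest part of the sum, overlapped between the groups in CPM (318 to 379.5 against 306 to 320.3). Whether the sums stay apart with TMM scaling was not tested. The TIMP sum was 30.5 ± 2.57 and 35.9 ± 4.39 FPKM, and there the groups overlapped. The ratio of the sums was 4.23, 4.54, 3.57 and 3.48 in PBS replicates 1 to 4 and 3.06, 3.17, 2.56 and 2.66 in rFGF4 replicates 1 to 4. All 4 rFGF4 libraries were lower than all 4 PBS libraries in this ratio. Groups without overlap in FPKM were found for 19.2% of single tested genes. MMP28, whose level is uncertain because of TAF15, made up 35.3% to 45.5% of the metalloproteinase sum. Without it the ratio was 2.10 to 2.67 in the PBS and 1.45 to 2.03 in the rFGF4 libraries, an alternative chosen after seeing the data. The ratio weighs few genes: MMP14 and MMP28 made up 94.2% to 96.4% of the metalloproteinase sum, and TIMP1 made up 60.1% to 71.6% of the TIMP sum. The metalloproteinase sum leaves out MMP2 (13.1 to 18.9 FPKM) and MMP7 (9.34 to 14.5 FPKM), so these shares are not of the whole family. The share of TIMP2 in the TIMP sum was 9.51% to 14.3% in the PBS and 7.58% to 9.24% in the rFGF4 libraries. TIMP2 itself overlapped between the groups, at 2.92 to 4.10 against 2.36 to 3.46 FPKM. Its share also depends on TIMP1, the largest part of that sum. These are levels of RNA and say nothing of enzyme activity.

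**Figure D4:**
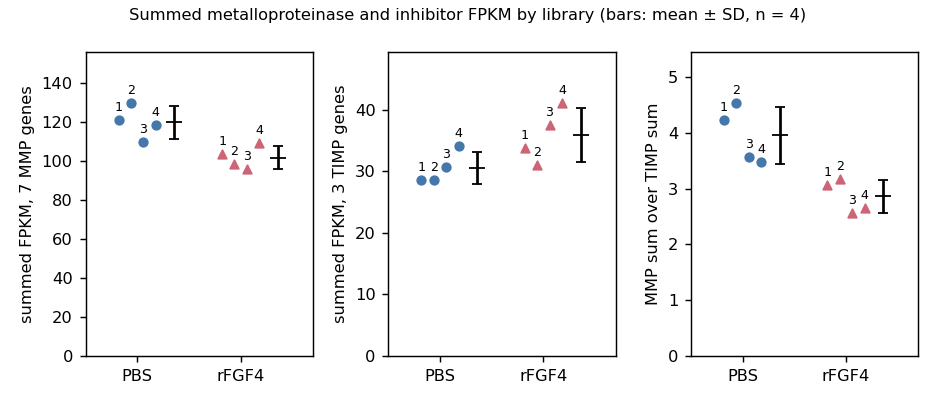
Summed FPKM of the 7 metalloproteinases, summed FPKM of the 3 TIMPs and the ratio of the sums in each library, with replicate numbers and the mean ± SD (n = 4) beside each group. In FPKM, which carries no TMM factor, the metalloproteinase sums meet at 109.4 and 109.7 and the TIMP sums overlap. The ratio is 3.48 to 4.54 in the PBS and 2.56 to 3.17 in the rFGF4 libraries.

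Of the other metalloproteinases and inhibitors, 20 were listed and 3 were high enough to be tested, of which 0 passed by edgeR. At an unadjusted p under 0.05 it was 2, a level that 25.1% of all tested genes reached. DESeq2 and limma each called 1, MMP7. Of all 11536 tested genes, DESeq2 called 982 higher and 846 lower, and limma 561 higher and 582 lower. MMP7, or matrilysin, an epithelial enzyme, was at 31.5, 40.4, 33.5 and 35.9 CPM in the PBS and at 30.0, 28.7, 26.6 and 28.6 CPM in the rFGF4 libraries. Every rFGF4 library was below every PBS library, and groups without overlap in CPM were found for 19.3% of all tested genes. The log2 fold change was −0.31 (SE 0.09, adjusted p = 0.0656). MMP2, the gelatinase A that MMP14 activates, was at 74.1 to 105 CPM and 95.2 to 112 CPM, with a log2 fold change of 0.17 (95% interval −0.08 to 0.42, adjusted p = 0.396). TFPI2, an inhibitor of plasmin, was at 5.84 to 10.9 CPM and 10.2 to 15.4 CPM (0.56, 95% interval 0.01 to 1.12, adjusted p = 0.191). These 3 were named after their values were seen.

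On chromosome 11 the table places 9 metalloproteinase genes within 102520508 to 102955732, all on the minus strand, as a block that holds MMP10, MMP1, MMP3 and MMP13. Its outermost members, MMP7 (9.34 to 14.5 FPKM) and MMP13 (3.14 to 5.90 FPKM), were the 2 that could be tested. Of the 7 between them MMP27 had 0 counts in all libraries, MMP20 and MMP12 had counts in 3 libraries each, and MMP8 and MMP3 in 2 each. MMP1 and MMP10 had counts in all 8. The genes of this block are related in sequence, and whether the authors' counting shared low counts among them was not tested.

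Genes that remove prodomains or act before the metalloproteinases were tested as a list of 18. Of 11 tested members 2 were higher and 0 lower, where 5.49% and 4.54% of all tested genes were, with a median log2 fold change of 0.05 beside 0.00 over all. FURIN, the convertase that removes the prodomain of MMP14 and MMP28 inside the cell, rose from 61.4, 64.8, 63.9 and 65.9 CPM in the PBS libraries to 100.5, 85.8, 99.0 and 95.4 CPM in the rFGF4 libraries. The groups were far apart, with a log2 fold change of 0.57 (SE 0.06, adjusted p = 0.00145). PLAUR, the receptor that holds urokinase at the cell surface, lay at 14.8 to 18.2 CPM in the PBS and at 21.8 to 33.3 CPM in the rFGF4 libraries, a rise of 0.68 on the log2 scale (SE 0.14, adjusted p = 0.0199). Leaving out PBS replicate 1, PBS replicate 2, PBS replicate 3 or rFGF4 replicate 3 ended this call, at adjusted p of 0.0536 to 0.0608.

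Among 12 tested cell surface partners and uptake receptors 2 were lower and 0 higher (4.54% and 5.49% of all tested genes), with a median of −0.05. LRP1, the endocytic receptor that takes up several metalloproteinases and TIMP complexes, fell from 348, 336, 328 and 301 CPM to 231, 226, 206 and 176 CPM. No rFGF4 library reached the PBS range, and the log2 fold change was −0.65 (SE 0.09, adjusted p = 0.00436). CLDN1, a tight junction protein that can recruit MMP14 and pro-MMP2, fell by 0.57 on the log2 scale (SE 0.06, adjusted p = 0.000819), the groups lying at 460.2 to 503 and 306 to 341 CPM.

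Transcription factors of the AP-1 and ETS families, which are known to bind metalloproteinase promoters, moved in both directions. Of 11 tested members 5 were higher and 1 lower, beside 5.49% and 4.54% of all tested genes, with a median of 0.03. This list, like the others, was chosen with earlier results of these data known, so its counts are a description and no test. FOSL1 (2.08), ETV5 (2.33), ETV4 (1.41) and JUN (1.10) rose on the log2 scale, and ELF3 fell by 1.96. ETS1, named after its value was seen, rose by 0.32 (edgeR adjusted p = 0.0496), a call that was lost under 16 of 19 other settings, among them leaving out any 1 library except rFGF4 replicate 4. None of the tested metalloproteinase or TIMP genes passed in the fit that called these factors. MMP1, MMP3, MMP9 and MMP10 lay below the filter and were not in that fit. The difference between the factors and the metalloproteinases was not tested.

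Of 14 tested matrix and basement membrane genes, which include the substrates of these enzymes, 1 was higher and 1 lower, with a median of 0.12. Over all tested genes 5.49% were higher and 4.54% lower, so at this threshold the counts are near the background. At an unadjusted p under 0.05 it was 8 of 14, a level that 25.1% of all tested genes reached. DESeq2 called 7 of 14, and of all 11536 tested genes it called 982 higher and 846 lower. With limma on log2(FPKM + 1) it was 1 of 14, beside 561 higher and 582 lower over all. COL4A2, a chain of basement membrane collagen, rose from 123 to 132 CPM to 147 to 164 CPM (0.27, SE 0.06, adjusted p = 0.0177). LAMB3, a chain of the laminin under basal keratinocytes, fell by 0.28 (SE 0.07, adjusted p = 0.0482), the PBS libraries lying at 552 to 598 CPM and the rFGF4 libraries at 415 to 515 CPM. COL4A2 did not pass by limma, nor when PBS replicate 2, PBS replicate 3, rFGF4 replicate 1 or rFGF4 replicate 3 was left out (adjusted p 0.0515 to 0.216). The call for LAMB3 was lost under 13 of 19 other settings, among them leaving out any 1 library (adjusted p 0.0559 to 0.129), the looser filters and limma on log2(TPM + 1).

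**Figure D5:**
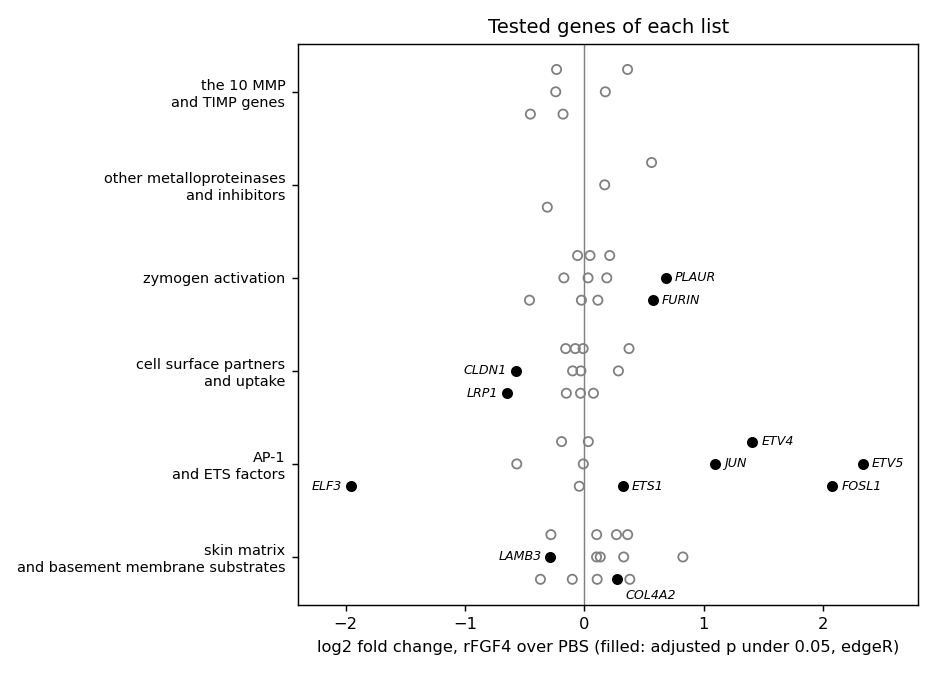
Log2 fold changes of rFGF4 over PBS (edgeR) for the tested genes of the 10 metalloproteinase and TIMP genes and of the 5 other lists, with genes past the threshold filled and named and small vertical offsets for legibility. No gene of the upper 2 lists is filled, and FOSL1, ETV5 and ELF3 lie farthest from 0.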

How the data were processed

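The authors deposited 2 columns per library, FPKM and counts, per the file headers, with 0.0001 FPKM in place of 0. The submitters' processing notes name HISAT2 2.0 and StringTie 1.3.0 without a role. Coordinates are as deposited, with build, annotation and strand use not given in the sources used. The deposited counts are whole numbers that pile up at 4 (9781 entries, against 3485 at 3 and 1977 at 5), so 1 fragment was taken as about 4 counts and the floor as 12 counts, or 3 fragments. Depth limits the precision of low genes, and floors cover counting error only.

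Y-linked genes and XIST with TSIX were removed (521 of 58825). The filter on low values was a mean of 1 FPKM or more across all 8 libraries. Tests were two-sided and used edgeR 4.0.16 (TMM, glmQLFit, glmQLFTest) in R 4.3.3, with Benjamini-Hochberg adjustment over all tested genes at 0.05. The SE is the size implied by the F statistic. Genes below the filter were read from the fit with no filter. Alternatives were DESeq2 1.42.0, limma 3.58.1, other scalings, filters and pseudocounts, a replicate block, each library left out, and counts divided by 4, the last chosen after seeing the data. On simulated counts for rFGF4 against PBS over 11536 genes, with 50 genes at each fold, the share recovered was 0% for a 1.25-fold change, 22% for 1.5-fold, 76% for 2-fold and 98% for 4-fold. There were 4 false calls. Fewer genes were changed there than the 633 higher and 524 lower called in the data, which makes the adjustment stricter. These shares may therefore lie below those of the real libraries, where COL4A2 passed at a log2 fold change of 0.27.

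The members and lists were chosen with earlier results of these data known. Named genes were the 10 members and up to 4 members of each other list past the threshold in each direction, by smallest p. The rule also named the 2 genes most like each member past the threshold, and there was no such member. Markers were read by level.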

Additional observations from a re-analysis of the deposited data

Results flagged for a closer look

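Of the 52 groups of 4 libraries examined over the genes named above, 3 held a library far from the other 3, where chance gives about 1 in 20. MMP3 was at 0.0626 CPM in PBS replicate 4 and at 0.0299 CPM in rFGF4 replicate 3, with 0 in the other libraries of each group, and both values lie below the floor of 12 counts. A lone value beside libraries at 0 is always flagged, so the rate of 1 in 20 does not apply to MMP3. ETV5 was at 3.81 CPM in PBS replicate 2, with the other PBS libraries at 5.98 to 6.12 CPM.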

How the results depend on the processing

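The direction of all 6 tested metalloproteinase and TIMP genes was the same under the 19 other settings. The count of those past the threshold, 0 higher and 0 lower, became 1 higher with a replicate block (TIMP1, adjusted p = 0.0455, higher in rFGF4 in all 4 same-numbered libraries) and 1 lower with DESeq2 (MMP13). With 1 library left out it was 0 to 1 lower (MMP13 without PBS replicate 1, MMP28 without rFGF4 replicate 4) and 0 higher. Over all genes, the 633 higher and 524 lower became 982 and 846 with DESeq2 and 305 and 420 with limma on log2(TPM + 1), and 326 to 622 and 269 to 550 with 1 library left out. They were 635 and 521 with counts divided by 4, and 561 and 452 with the replicate block, under which the calls for LAMB3 (adjusted p = 0.0938) and ETS1 (adjusted p = 0.0543) were lost. Same-numbered libraries deviated from their group means with correlations of 0.12, 0.06, −0.02 and 0.27. PBS replicates 1, 2 and 4 correlated best with the rFGF4 library of the same number, and PBS replicate 3 with rFGF4 replicate 2. As not all matched, the numbers were not taken to pair the libraries, and a pairing remains uncertain. TAF15 changed sign without PBS replicate 4 (−0.050), and ranged to 0.13 with another library left out. MMP7 passed with DESeq2 (adjusted p = 0.0163) and limma on log2(FPKM + 1) (adjusted p = 0.0486). The cause of these changes was not tested. MMP3, MMP9 and MMP10 are limited by depth.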
